A study of Mus musculus with 3 samples.

Results

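The inhibin, activin, follistatin and anti-Müllerian hormone (AMH) genes were followed through the cells of the mouse ovary. They were chosen by name as 10 of the 24958 gene rows of a deposited single-cell RNA-sequencing (scRNA-seq) table, and all 10 were present. By role, they are the chains *Inha*, *Inhba* and *Inhbb*, the hormone gene *Amh*, the activin-binding proteins *Fst* and *Fstl3*, and the receptors *Amhr2*, *Acvr2a*, *Acvr1b* and *Tgfbr3*.

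Inhibin is a dimer of the α chain, encoded by *Inha*, with a β chain, encoded by *Inhba* or *Inhbb*, whereas activin is a dimer of β chains. Granulosa cells (GCs) of the follicle secrete inhibin, which lowers the release of follicle stimulating hormone (FSH) from the pituitary, while activin raises it. Activin acts through a type II receptor such as *Acvr2a* and the type I receptor *Acvr1b*, and follistatin (*Fst*) and follistatin-like 3 (*Fstl3*) bind activin and hold it away from these receptors. The co-receptor betaglycan (*Tgfbr3*) lets inhibin occupy the type II receptor. AMH comes from the GCs of small growing follicles, restrains the recruitment of resting follicles and signals through its own type II receptor, *Amhr2*.

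By the labels, ovaries of mice were taken 0, 1 and 6 h after an injection of human chorionic gonadotropin (hCG), which acts on the LH receptor, and 1 droplet library (10x Genomics) was made for each time. The study's mice were of the Kunming stock, 21 days old, and had been given pregnant mare serum gonadotropin (PMSG), which has FSH activity, 48 h earlier. This matches the 0 h library only. Whether the mice of the other libraries received PMSG, and how many ovaries were pooled, is not given in the sources used here. Cell barcodes end in 1, 2 or 3. No source ties an ending to a library, although the labels number the libraries, so the cells were described as barcode sets 1, 2 and 3 without a time point.

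Sets 1, 2 and 3 held 10384, 9917 and 11475 cells with a median of 6093, 6352 and 6524 unique molecular identifiers (UMIs) per cell. Sets 1 and 2 shared 27 cell barcodes, sets 1 and 3 shared 46, and sets 2 and 3 shared 39. Clusters made within each set without the 10 genes were named from marker genes. They gave 11874 granulosa-like cells, 4578, 4316 and 2980 in sets 1, 2 and 3 (44.1%, 43.5% and 26.0%), and theca-, stroma-, smooth muscle-, endothelial-, myeloid-, luteal- and epithelial-like cells. Clusters with 4088 cells stayed unnamed, 4.08%, 10.0% and 23.3% of the sets. Of these cells, 459 in set 2 and 2215 in set 3 lay in clusters of usual depth with at least 2 granulosa markers detected or most cells classed as granulosa by their own markers. The largest, 1166 cells of set 3 led by *Nts*, *Sult1e1* and *Vnn1*, had 3 granulosa markers detected, as many as some named clusters, and stayed unnamed because a luteal and no granulosa marker was among its 10 leading genes. By their own markers, 28.0% of its cells were classed as granulosa. The other of set 3, 1049 cells led by *Lyve1*, *Npy* and *Comp*, had 2 granulosa and 2 luteal markers detected, and 16.4% of its cells were so classed. Those of set 2 had 72.2% and 76.3%. The clusters of both sets are called near-granulosa below and are counted among the other cells unless stated, but the class of those in set 3 is uncertain. The granulosa-like class of set 3 depended on the clustering, with 772 cells when the sets were clustered together and 1794 at a finer resolution of 2. No subtype of set 3 was named antral mural-like, so the make-up of the granulosa-like class differed between the sets.

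The level of a gene is its summed UMIs per 10000 UMIs of the group. A UMI stands for a molecule whatever its length, so levels do not scale with transcript length. The capture of each transcript was not measured, so levels of different genes compare UMIs only. Ranges in parentheses are exact 95% intervals for the UMIs. They cover counting error only, because cells are not replicates and no set has a replicate library, and no test was made. A gene is called past 2-fold where the ratio of levels is at least 2 in either direction, the interval excludes 1 and both groups together hold at least 50 UMIs.

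*Inha*, *Inhba*, *Inhbb* and *Fst* were abundant in granulosa-like cells of sets 1 and 2 and lower in set 3. The *Inha* level in granulosa-like cells was 57.1 (56.9 to 57.4), 60.4 (60.1 to 60.6) and 25.8 (25.6 to 26.0) in sets 1, 2 and 3. *Inhba* had 31.3, 39.2 and 2.71, *Inhbb* 8.51, 6.11 and 0.936, and *Fst* 10.8, 16.3 and 2.97. The other 6 genes stayed at or below 1.22 in every set, and *Amhr2* was the highest of them with levels of 0.865, 0.555 and 1.22. *Amh* itself had 0.232, 0.121 and 0.697 in the whole class.

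In set 1, 6 of the 10 genes were past 2-fold higher in granulosa-like than in all other cells and 1 was lower, where 9.95% of all genes tested were higher and 17.5% lower. The ratios were 9.82 (9.70 to 9.94) for *Inha*, 25.3 for *Inhba*, 27.0 for *Inhbb*, 22.3 for *Fst*, 17.8 (13.7 to 23.5) for *Amh* and 2.23 for *Amhr2*. *Fstl3* was the gene on the other side, 4.43-fold lower (2.86 to 7.12). In set 2, 5 genes were higher and 2 lower (8.01% and 19.5% of all genes). *Inha* had a ratio of 9.05, *Inhba* 23.2, *Inhbb* 17.8, *Fst* 11.7 and *Amhr2* 2.01, and *Amh*, with 0.900 (0.788 to 1.03), did not differ beyond counting error. In set 3, 5 were higher and 2 lower (9.78% and 14.6% of all genes). The ratios there were 4.32 for *Inhba*, 9.69 for *Inhbb*, 2.49 for *Fst*, 15.5 for *Amh* and 7.64 for *Amhr2*, and *Inha*, at 1.84, missed the fold. *Inhba*, *Inhbb*, *Fst* and *Amhr2* were thus higher in each set. When the sets were clustered together, only *Inhbb* was, with *Inhba* at 1.53 and *Fst* at 0.835 in set 3, *Amhr2* at 1.72 and 1.51 in sets 1 and 2 and *Amh* at 1.23 in set 1. At resolution 2, *Inhba* and *Inhbb* were, with *Fst* at 1.86 in set 3. Medians of the log2 ratio over the 10 genes were 2.23, 0.58 and 1.10, beside 0.09, -0.23 and 0.06 over all genes tested.

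The exceptions for *Amh* in set 2 and *Inha* in set 3 went with the unnamed clusters. In set 3 they held 48.9% of the *Inha* UMIs, against 42.8% in granulosa-like cells, and in set 2 they held 53.1% of the *Amh* UMIs, against 40.5%. With the unnamed clusters left out of the other cells, *Inha* had ratios of 9.99, 14.1 and 9.05 and *Amh* 18.0, 6.60 and 22.6 in sets 1, 2 and 3. By that comparison the same 6 genes were past 2-fold higher in each set, where 11.1%, 10.1% and 13.5% of all genes were.

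**Figure D1:**
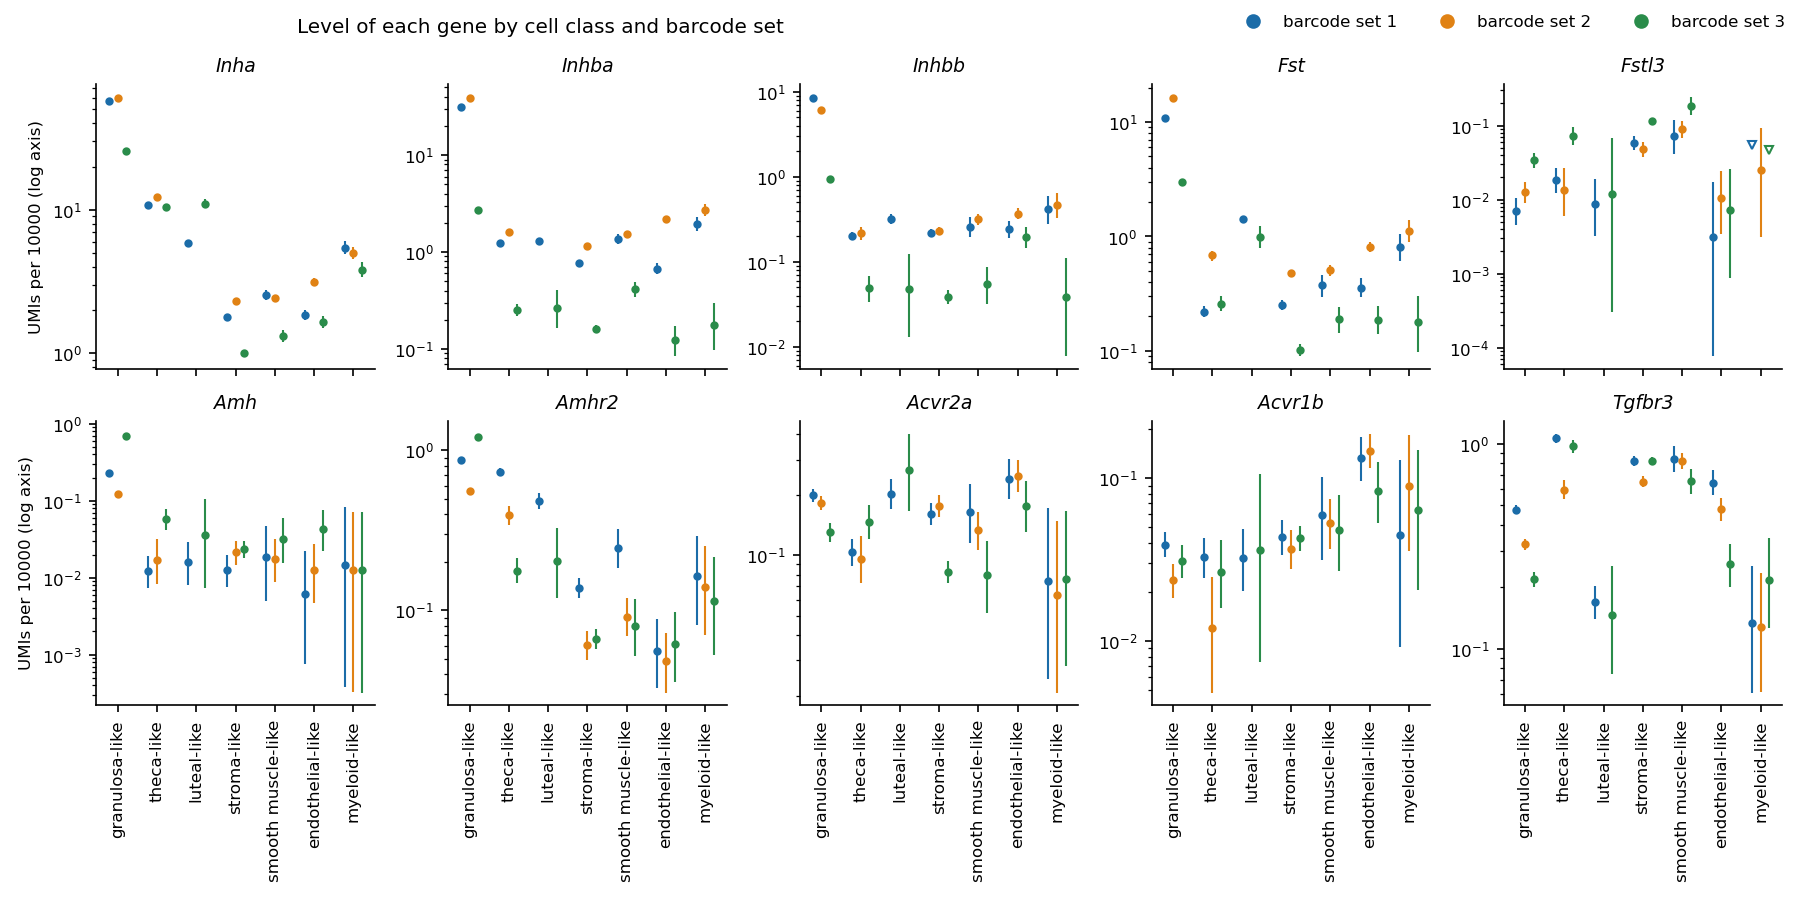
Level of each of the 10 genes (UMIs per 10000 UMIs, log axis) in the named cell classes other than epithelial-like, for barcode sets 1, 2 and 3, with exact 95% counting intervals as bars and open triangles at the upper bound where a class held 0 UMIs. *Inha* in granulosa-like cells lies at 57.1, 60.4 and 25.8, and *Fstl3* and *Tgfbr3* lie lower in granulosa-like than in stroma-like cells.

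Theca-like cells, which produce androgens, had *Inha* levels of 10.7 (10.5 to 10.8), 12.2 and 10.4, against 1.78, 2.30 and 0.998 in stroma-like cells. The set 1 value pools a *Cyp17a1*-led cluster of 858 cells at 8.12 with one of 458 cells at 15.6, led by *Mgat4c*, *Adh1* and *Tbx3*, which had 5 theca markers detected but none among its leading genes. Of the other named classes, luteal-like cells reached 5.86 in set 1 and 11.0 in set 3, and the unnamed clusters together had 6.89, 15.6 and 42.3. RNA set free from GCs can reach droplets of other cells. Myeloid- and endothelial-like cells, which are not known as a source of inhibin, had *Inha* levels of 5.44, 5.0 and 3.83 and of 1.84, 3.15 and 1.66. The myeloid-like value of set 3 pools clusters at 1.79, 1.66 and 8.66, the last with a median of 2298.5 UMIs. An unnamed cluster of 23 cells in set 2, led by *S100a9*, *S100a8* and *Retnlg*, had 3 myeloid and 3 granulosa markers detected. It had *Inha* at 41.7 at a median of 1188 UMIs, so the background can be higher in shallow cells. After each cell was thinned to 3000 UMIs, *Inha* was detected in 93.0%, 94.6% and 93.5% of granulosa-like cells and in 76.9%, 79.4% and 67.2% of theca-like cells. Myeloid-like cells had 35.4% (25.0 to 47.0%), 50% and 34.0%, and endothelial-like cells 38.4%, 47.0% and 23.7%. Without thinning, the shares in sets 1, 2 and 3 were 96.0%, 97.6% and 95.3% for granulosa-like, 94%, 94.2% and 85.5% for theca-like and 47.2%, 74.1% and 37.7% for myeloid-like cells. Median depths were 5883.5, 6519 and 7156 UMIs in granulosa-like, 10991, 10668 and 10018.5 in theca-like and 5104.5, 4978 and 3392 in myeloid-like cells. Thinning left out 239, 140 and 210 granulosa-like and 29, 35 and 75 myeloid-like cells. The theca-like share was thus above that of both background classes in each set, in that its interval lay above both of theirs.

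The *Inhba* UMIs per *Inha* UMI were 0.548, 0.649 and 0.105 in granulosa-like cells and 0.115, 0.131 and 0.0241 in theca-like cells. Endothelial-like cells had 0.366, 0.695 and 0.0742 and myeloid-like cells 0.360, 0.543 and 0.0465, so this ratio also differed between the background classes and the granulosa-like cells, and the part of free RNA in it was not tested. The share of theca-like cells with *Inhba* was 20.8%, 27.5% and 5.98% at 3000 UMIs, beside 13.9% (7.16 to 23.5%), 27.8% (19.6 to 37.2%) and 4.0% (1.10 to 9.93%) in myeloid-like cells, whose intervals include the theca-like values. In granulosa-like cells *Inhba* was detected in 58.9%, 76.0% and 23.6%. By the same reading, shares of *Inha*, *Inhba*, *Inhbb*, *Fst* and *Amhr2* in granulosa-like cells were above both background classes in each set. The share of *Amh* was above them in set 3 only at 3000 UMIs, and in each set without thinning. Few myeloid-like cells were held, so their intervals were wide and a low share could not lie above them. The share of *Fstl3* was above both classes in no set at 3000 UMIs. For *Acvr2a*, *Acvr1b* and *Tgfbr3* this reading says nothing, since endothelial-like cells had higher levels of them than granulosa-like cells in each set.

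Granulosa-like subtypes differed widely. Antral mural-like clusters, which resemble the wall GCs of large follicles and were led by genes such as *Comp* and *Tnfsf11*, were present in sets 1 and 2 with 1158 and 1003 cells. In set 2 a further cluster, of 623 cells and led by *Nts*, *Zpld1* and *Elovl4*, scored as antral mural-like but had *Ptgs2*, a marker of expanding cumulus, and no antral mural marker among its 10 leading genes, and was left without a subtype. Its levels were 81.9 for *Inha*, 65.8 for *Inhba* and 11.2 for *Inhbb*. The antral mural-like cluster of 1003 cells also had no antral mural marker among its 10 leading genes, but none of another subtype either. It had 4 antral mural, 3 expanding cumulus and 3 theca markers detected. By their own markers, 79.4% of its cells were classed as granulosa. Preantral-like clusters were present in all sets with 601, 309 and 652 cells. In antral mural-like cells the *Inha* level was 95.8 and 99.0 in sets 1 and 2, and in preantral-like cells it was 18.8, 19.0 and 21 in sets 1, 2 and 3. *Inhba* had 67.8 and 67.5 against 1.33, 1.36 and 0.0901. *Inhbb* had 7.88 and 5.97 against 0.402, 0.395 and 0.443, and *Fst* 16.6 and 23.7 against 3.89, 2.30 and 0.894. The preantral-like levels of *Inhba* in each set, and of *Inhbb* in sets 1 and 2, were near those in the background classes. Endothelial-like cells had *Inhba* at 0.673, 2.19 and 0.123 and myeloid-like cells at 1.96, 2.72 and 0.178. For *Inhbb* they had 0.244, 0.369 and 0.195, and 0.415, 0.472 and 0.0382. The share of preantral-like cells with *Inhba* at 3000 UMIs, 17.4%, 20.1% and 2.74%, was above that of both classes in no set, and that with *Inhbb*, 9.11%, 8.39% and 9.35%, in set 3 only, and there not at 1500 UMIs. *Inha* and *Fst* shares were above both in each set.

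In set 1, antral mural-like cells had 4 genes past 2-fold above preantral-like cells and 1 below, beside 11.0% and 8.93% of all genes tested. In set 2, 4 were higher and 2 lower, beside 11.0% and 27.5%. These counts were also 4 and 2 with the *Nts*-led cluster included, beside 10.9% and 27.7%. *Inha* was 5.10-fold and 5.21-fold and *Fst* 4.26-fold and 10.3-fold higher in antral mural-like cells of sets 1 and 2. *Inhba* had ratios of 51.0 (47.2 to 55.2) and 49.5 (44.5 to 55.2) and *Inhbb* of 19.6 and 15.1. These ratios of the β chains are to a preantral-like level that was not above the background classes, so their intervals do not cover that uncertainty. *Amh* ran the other way, from 0.0106 and 0.0216 in antral mural-like to 1.15 and 1.19 in preantral-like cells, 109-fold (54.7 to 253) and 55.0-fold (32.3 to 102) lower. Here the antral mural-like level, from 8 and 14 UMIs, was not above the background classes, with 0.00618 and 0.0126 in endothelial-like and 0.0148 and 0.0127 in myeloid-like cells, so these folds carry the same uncertainty. *Amhr2* was 1.94-fold lower in set 1 and 6.53-fold lower in set 2, so only set 2 passed the fold. Mitotic clusters had *Inha* at 64.8, 78.1 and 37.4 and *Inhbb* at 16.4, 13.3 and 0.864, but those of set 1 were unlike each other. One led by *Pbk*, *Ube2c* and *Top2a* had *Inha* at 89.7 and *Inhbb* at 27.5, and one led by *Top2a*, *Ube2c* and *Hist1h1b* had 32.4 and 1.99, on either side of the antral mural-like *Inhbb* level. Atretic-like clusters of sets 1 and 2 had *Inha* at 3.17 and 6.41 only, with general granulosa markers largely undetected. An expanding cumulus-like cluster of 163 cells in set 3, led by *Ptx3*, *Grem1* and *Nupr1*, had *Inha* at 31.7 and *Inhba* at 8.36. In set 3 a further 575 cells, whose leading genes were *Ihh*, *Tex14* and *Cables1*, scored as mitotic but had no mitotic marker and the preantral marker *Slc18a2* among the first 10. This *Ihh*-led cluster was left without a subtype and had *Inha* at 21.8, *Inhba* at 0.445 and *Inhbb* at 0.748.

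The number of α chain UMIs per β chain UMI (*Inhba* and *Inhbb* together) was 1.44 (1.43 to 1.45), 1.33 (1.32 to 1.34) and 7.08 (6.92 to 7.23) in granulosa-like cells of sets 1, 2 and 3. Granulosa-like clusters of high β chain level had low values. Antral mural-like cells had 1.27 and 1.35 and mitotic cells 1.25 (1.03 and 5.51 in the 2 clusters), 1.11 and 8.16, while preantral-like cells had 10.9 (10.1 to 11.7), 10.8 (9.79 to 11.9) and 39.4 (34.5 to 45.3). In set 3, a granulosa-like cluster of 968 cells led by *Tdrd5*, *Prss23* and *Pik3ip1* had 3.11 and the expanding cumulus-like cluster 2.90. Theca-like cells had 7.45 (5.10 and 13.8 in the 2 clusters), 6.72 and 34.8. In preantral- and theca-like cells the β chain shares at 3000 UMIs were not above both background classes, apart from *Inhbb* in preantral-like cells of set 3 at that depth alone of the 2 used, so a ratio free of background was not measured there. The near-granulosa clusters of set 3, led by *Nts*, *Sult1e1* and *Vnn1* and by *Lyve1*, *Npy* and *Comp*, had 16.9 and 32.1 at *Inha* levels of 44.5 and 45.4. These *Inha* levels were above those of all granulosa-like clusters of that set. A high α to β ratio thus occurred at a high as well as at a low level of *Inha*. By their own markers, however, only 28.0% and 16.4% of the cells of these 2 clusters were classed as granulosa.

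**Figure D2:**
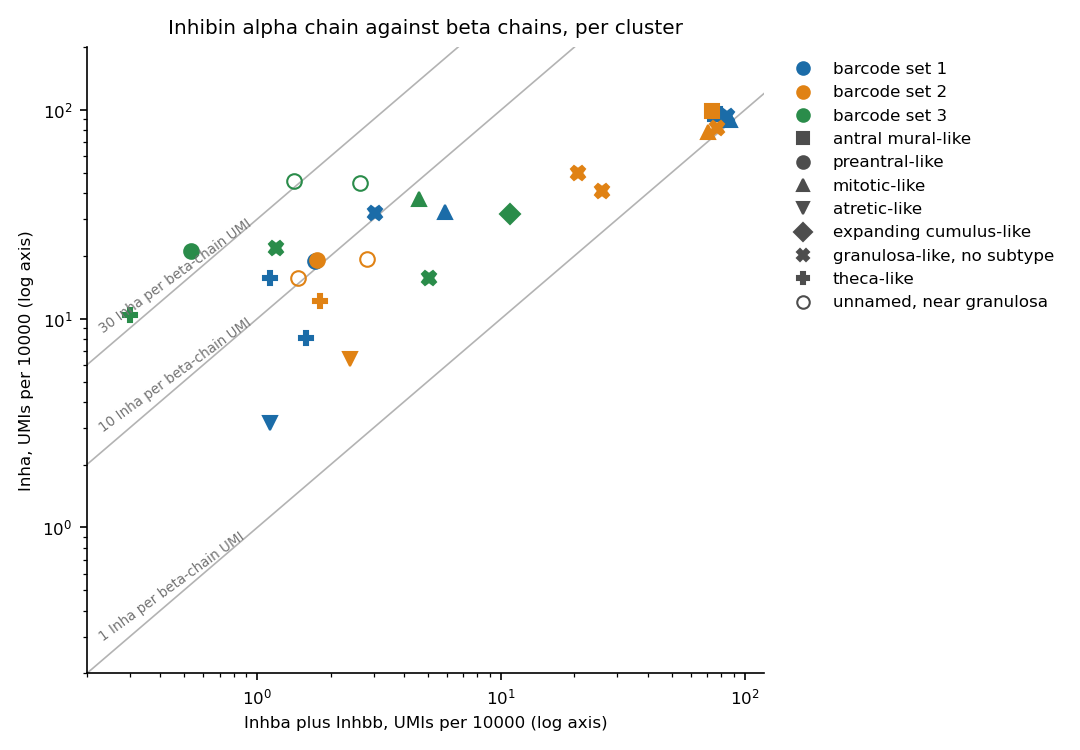
*Inha* level against the summed level of *Inhba* and *Inhbb* (both in UMIs per 10000, log axes), with 1 point per granulosa-like, near-granulosa or theca-like cluster, colored by barcode set and shaped by subtype; the lines mark 1, 10 and 30 α per β UMI. Granulosa-like clusters of sets 1 and 2 with high β chain levels lie near the line of equal levels, with antral mural-like values of 1.27 and 1.35 α per β UMI, and those of set 3 lie further on the *Inha* side.

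*Inhba* made up most β chain UMIs, with 78.6% (78.4 to 78.8%), 86.5% and 74.3% in granulosa-like cells. In preantral-like cells it made up 76.8% and 77.6% in sets 1 and 2 and 16.9% (12.2 to 22.5%) in set 3, where the *Ihh*-led cluster also had a low share of 37.3%. *Fst* UMIs per β chain UMI were 0.271, 0.360 and 0.814 in granulosa-like cells and 2.25, 1.31 and 1.68 in preantral-like cells. Antral mural-like cells had 0.219 and 0.323. The part of background in the β chain UMIs of the preantral-like cells was not tested here either. In endothelial-like cells of set 3, *Inhba* made up 38.6% (28.4 to 49.6%) of the β chain UMIs. Whether the background classes hold β chain RNA of their own was not tested.

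Within cells thinned to 3000 UMIs, *Inha* and a β chain were detected together in 99.0% (98.2 to 99.5%) and 99.4% of antral mural-like cells in sets 1 and 2. In preantral-like cells they were detected together in 22.2%, 24.2% and 11.8%, and *Inha* without a β chain in 72.3%, 71.1% and 83.2%. Of 620 preantral-like cells of set 3, 0 held both β chains, which allows a share of up to 0.593% by the exact interval. The whole granulosa-like class had *Inha* with a β chain in 60.2%, 77.4% and 29.5% of cells, and theca-like cells had *Inha* alone in 57.9%, 53.7% and 61.5%. A cell with a low β chain level can lack a UMI at this depth, so these shares follow the levels. The part of background in the β chain UMIs of preantral- and theca-like cells was not tested.

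**Figure D3:**
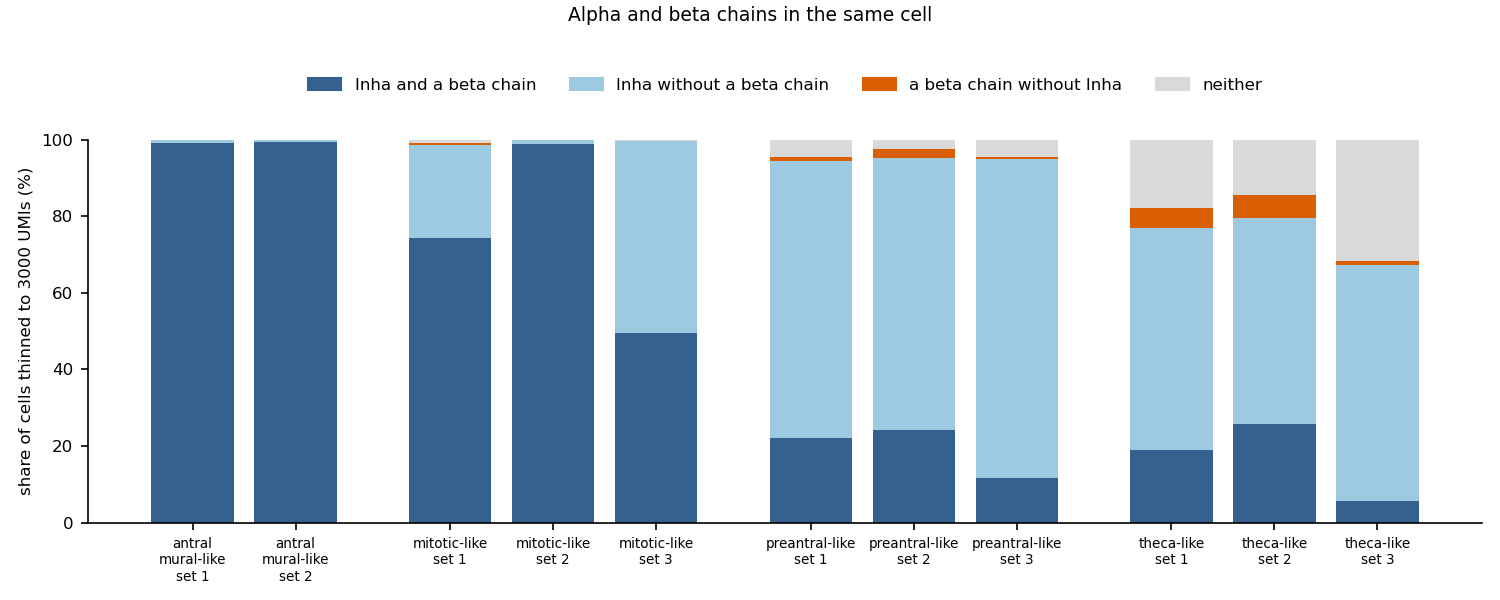
Share of cells (%, thinned to 3000 UMIs) with *Inha* and a β chain, with *Inha* alone, with a β chain alone and with neither, as stacked bars for granulosa-like subtypes and theca-like cells of each barcode set. Antral mural-like bars are filled by cells with both kinds of chain (99.0% and 99.4%), and preantral-like bars mostly by cells with *Inha* alone (72.3%, 71.1% and 83.2%).

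Between the sets, levels in granulosa-like cells were compared as a description, since time, library and handling cannot be told apart. The largest clusters of the class differed between the sets. In set 1 they were one led by *Rgs13*, *Ntng1* and *Cntf* (1269 cells) and the antral mural-like cluster (1158 cells). In set 2 they were the antral mural-like cluster (1003 cells) and one led by *Ihh*, *Edn2* and *Grem1* (725 cells). Set 3 had one led by *Tdrd5*, *Prss23* and *Pik3ip1* (968 cells), then the preantral-like (652), mitotic (622) and *Ihh*-led (575) clusters. By their own markers, 64.0%, 84.8%, 41.6% and 74.3% of the cells of these clusters were classed as granulosa. The *Tdrd5*-led cluster had 5 granulosa markers and 1 atretic marker detected. It shared *Prss23* and the atretic marker *Pik3ip1*, among others, with the 10 leading genes of the atretic-like cluster of set 2. From set 1 to set 2, 0 of the 10 genes were past 2-fold in either direction (6.71% of all genes higher, 20.2% lower). *Inhba* had a ratio of 1.25 and *Fst* of 1.51, while *Inhbb* had 0.719 and *Amh* 0.522. Set 3 stood apart from set 2. There, 4 genes were lower and 3 higher, beside 8.69% and 19.8% of all genes tested. *Inhba* was 14.5-fold lower (14.1 to 14.8), *Inhbb* 6.53-fold, *Fst* 5.49-fold and *Inha* 2.34-fold. *Amh* was 5.76-fold higher (5.15 to 6.45), *Fstl3* 2.66-fold (1.81 to 3.98) and *Amhr2* 2.20-fold (2.07 to 2.33). The *Fstl3* ratio rests on 40 UMIs in set 2 and 84 in set 3. Its share of granulosa-like cells at 3000 UMIs was above both background classes in no set. Against set 1, set 3 had 5 genes lower and 2 higher (11.1% and 6.83% of all genes). The same 4 genes were lower there, by 11.6-fold for *Inhba*, 9.09-fold for *Inhbb*, 3.63-fold for *Fst* and 2.22-fold for *Inha*, with *Tgfbr3* at 2.19-fold as the fifth, and *Amh* was 3.01-fold and *Fstl3* 4.77-fold higher. The median log2 ratio of all genes tested was -0.45 for set 2 over set 1, 0.34 for set 3 over set 2 and -0.10 for set 3 over set 1, and that of the 10 genes -0.30, -0.53 and -0.88. These 3 comparisons share sets and are not independent. When each cell was classed by its own markers, the set 3 over set 2 ratios of *Inha* (0.501) and *Amhr2* (1.93) missed the fold, and that of *Amh* was 3.0. Over all alternatives the *Amh* ratio ran from 1.92, with near-granulosa clusters added, to 14.3 at the finer resolution.

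The comparison was repeated for other make-ups of the class. Counting the near-granulosa clusters as granulosa-like, 3 genes were past 2-fold lower in set 3 than in set 2 and 1 higher, beside 8.85% and 16.2% of all genes. *Inhba* was then 14.1-fold, *Inhbb* 8.08-fold and *Fst* 4.32-fold lower and *Fstl3* higher, while *Inha* was 1.64-fold lower and *Amh* 1.92-fold higher. Against set 1, 4 were lower and 1 higher, beside 13.6% and 9.16% of all genes. Within the preantral-like cells, 3 genes were lower in set 3 than in set 2 and 0 higher (3.87% and 2.64% of all genes). *Inhba* was 15.1-fold lower (10.8 to 21.9), *Fst* 2.58-fold and *Tgfbr3* 2.08-fold. *Inha* had a ratio of 1.11 (1.07 to 1.15), *Inhbb* 1.12 (0.874 to 1.45) and *Amh* 1.38 in the same cells. Endothelial-like cells had *Inhba* 17.8-fold (12.7 to 25.9) and *Fst* 4.33-fold lower in set 3 than in set 2, and the preantral-like share of *Inhba* was above both background classes in neither set, so its difference within preantral-like cells cannot be read apart from the background. The preantral-like *Tgfbr3* level went from 0.263 to 0.127, beside 0.127 and 0.216 in myeloid-like cells. Endothelial-like cells had more *Tgfbr3* than granulosa-like cells and are no measure of its background. The *Fst* share was above it in both sets, and the part of background in the *Fst* ratio was not tested.

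Stroma- and theca-like cells of set 3 differed from those of set 2 in both directions. The share of all genes past the fold is not given for these classes, so the folds below lack that reference. In stroma-like cells the median log2 ratio was -0.486 over the 10 genes and 0.0381 over all genes tested. In theca-like cells it was -0.226 over the 9 of them tested and 0.370 over all genes tested. Relative to set 2, *Inhba* was 7.14-fold lower in stroma-like and 6.37-fold in theca-like cells, *Inhbb* 5.90-fold and 4.43-fold, and *Fst* 4.68-fold and 2.64-fold. The same genes were lower in the background classes of set 3, with *Inhba* at 2.19 and 0.123 and *Fst* at 0.813 and 0.188 in endothelial-like cells of sets 2 and 3, and *Inhba* at 2.72 and 0.178 and *Fst* at 1.12 and 0.178 in myeloid-like cells. The part of free RNA in the stroma- and theca-like values was not tested. *Inha* was 2.31-fold lower in stroma-like cells and had a ratio of 0.855 in theca-like cells. *Acvr2a* was 2.13-fold lower in stroma-like and *Amhr2* 2.22-fold lower in theca-like cells. *Fstl3* was higher in set 3, 2.40-fold in stroma-like and 5.29-fold (2.49 to 12.9) in theca-like cells, as was *Amh* of theca-like cells, 3.33-fold (1.64 to 7.47) at levels of 0.0573 in set 3 and 0.0172 in set 2. That *Amh* was not above the background classes in either set, and endothelial-like cells had 0.0434 and 0.0126.

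**Figure D4:**
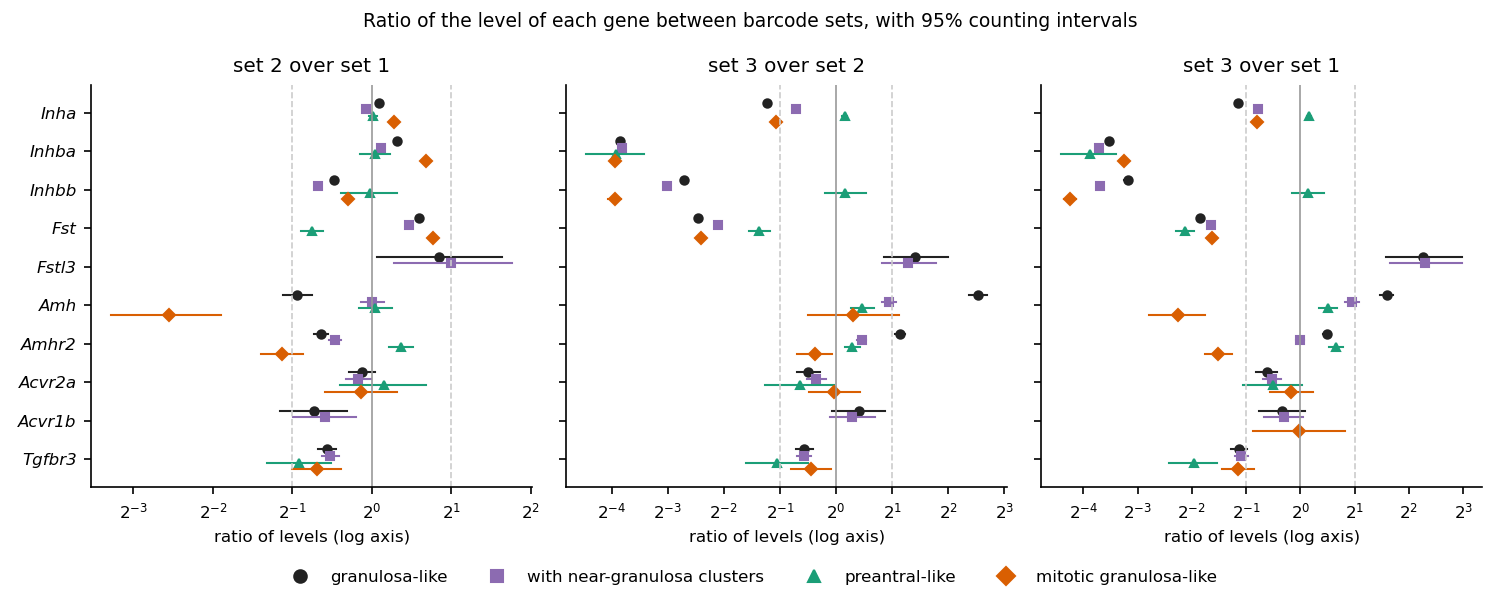
Ratio of the level of each gene between barcode sets (log axis) in all granulosa-like cells, with near-granulosa clusters added, in preantral-like cells and in mitotic granulosa-like cells, with exact 95% counting intervals; the dashed lines mark 2-fold in each direction. For set 3 over set 2, *Inhba* lies far to the lower side in each group, 14.5-fold lower in all granulosa-like cells, while *Inha* of preantral-like cells lies near 1; *Inhba* of preantral-like cells was not above the background classes in any set.

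*Amh* was concentrated in a few clusters. The highest levels were 1.65 and 1.64 UMIs per 10000 in the *Ihh*-led and the preantral-like cluster of set 3, 1.31 (1.17 to 1.47) in a near-granulosa cluster of set 2 led by *Hist1h1b*, *Cenpf* and *Cdc20*, and 1.19 and 1.15 in the preantral-like clusters of sets 2 and 1. These levels are close in the order, and the interval of the near-granulosa cluster includes the value of set 2. A near-granulosa cluster of set 2 led by *Mycl*, *Cables1* and *Dynap* had 0.606, and a mitotic cluster of set 1 had 0.559. Every other granulosa-like or near-granulosa cluster had a level of 0.0710 or less. *Amh* was detected in 23.7%, 27.2% and 31.9% of preantral-like cells thinned to 3000 UMIs and in 0 of 79, 108 and 100 myeloid-like cells, which allows shares of up to 4.56%, 3.36% and 3.62%. The share of preantral-like cells was 39.9%, 46.0% and 49.7% without thinning.

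*Inhba* and *Amh* were also compared within cells. Of granulosa-like cells with an *Amh* UMI, 21.5% (15.8 to 28.3%), 37.7% (28.5 to 47.7%) and 5.49% (3.47 to 8.19%) also held *Inhba*, against 60.5%, 77.0% and 26.7% of those without. Within preantral-like cells the shares were alike, 15.9% against 17.8%, 21% against 19.8% and 2.53% against 2.84%, with intervals that overlap. Since *Inhba* of preantral-like cells was not above the background classes, these shares do not show whether the genes are held by different cells there.

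Of the granulosa-like subtypes, *Amhr2* was highest in the same preantral-like cells, with levels of 1.82, 2.35 and 2.87, and its share of cells at 3000 UMIs was 38.3%, 48.3% and 59.2%. Unlike *Amh*, it was also present elsewhere. Antral mural-like cells had levels of 0.939 and 0.360 and theca-like cells 0.735 (0.693 to 0.779), 0.393 and 0.177. Endothelial-like cells had 0.0556, 0.0484 and 0.0614 and myeloid-like cells 0.163, 0.140 and 0.115. The share of theca-like cells with *Amhr2* at 3000 UMIs, 18.3%, 10.2% and 3.68%, was above that of both background classes in sets 1 and 2 and not in set 3, where myeloid-like cells had 4.0%. In set 2 it was not above both at 1500 UMIs. Nor was the *Amhr2* share of antral mural-like cells of set 2, which was above both at 3000 UMIs. The 20 epithelial-like cells of set 2, led by *Lgals2*, *Lgals7* and *Upk3b*, had a level of 3.75 (2.99 to 4.64) from 84 UMIs, the highest of any class. Among granulosa-like cells with an *Amh* UMI, 47.0%, 39.6% and 50.1% held *Amhr2*, against 18.4%, 11.4% and 27.1% of those without. Within preantral-like cells the shares were 48.6% (40.0 to 57.2%) against 35.1% (30.7 to 39.8%) in set 1, 48.1% against 48.4% in set 2 and 59.6% against 59.0% in set 3.

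**Figure D5:**
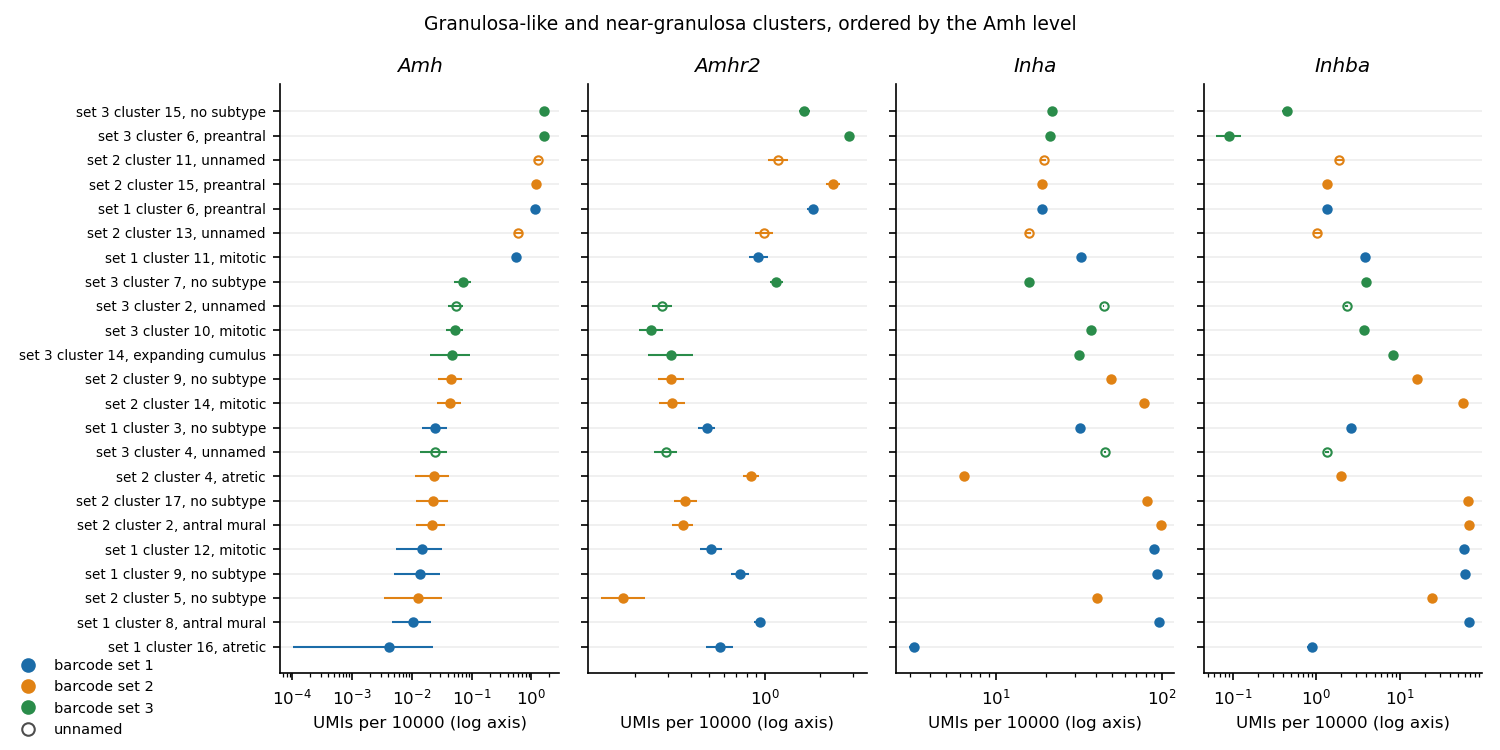
Levels of *Amh*, *Amhr2*, *Inha* and *Inhba* (UMIs per 10000, log axes) in granulosa-like clusters (filled) and near-granulosa clusters (open) of the 3 barcode sets, ordered by the *Amh* level, with exact 95% counting intervals. The clusters at the top, with *Amh* up to 1.65, have low *Inhba*, and the antral mural-like clusters near the bottom, with *Amh* at 0.0106 and 0.0216 by set, have the highest *Inhba*.

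*Inhba*, which was highest in antral mural-like cells, and *Amhr2*, the receptor gene highest in preantral-like among granulosa-like cells, are shown with the sequence around their starts. By the GENCODE M21 annotation of GRCm38 (mm10), *Amhr2* lies at chr15:102445367-102454633 and *Inhba* at chr13:16011851-16031621, both on the plus strand. Each sequence below is from RefSeq (GRCm38.p6), covers 250 bases before to 50 bases after the start, and runs 5′ to 3′ on the plus strand at chr15:102445117-102445416 and chr13:16011601-16011900. Capitals mark CAAGGTC in *Amhr2*, beginning 232 and 172 bases before the start, and TATAAA in *Inhba*, 91 bases before it.
Amhr2: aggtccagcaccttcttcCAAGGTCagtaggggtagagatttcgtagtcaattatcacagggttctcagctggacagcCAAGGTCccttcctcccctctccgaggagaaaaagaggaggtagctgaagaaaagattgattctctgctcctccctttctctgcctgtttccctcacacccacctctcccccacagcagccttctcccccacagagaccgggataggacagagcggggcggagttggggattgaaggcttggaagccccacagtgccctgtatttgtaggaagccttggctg
Inhba: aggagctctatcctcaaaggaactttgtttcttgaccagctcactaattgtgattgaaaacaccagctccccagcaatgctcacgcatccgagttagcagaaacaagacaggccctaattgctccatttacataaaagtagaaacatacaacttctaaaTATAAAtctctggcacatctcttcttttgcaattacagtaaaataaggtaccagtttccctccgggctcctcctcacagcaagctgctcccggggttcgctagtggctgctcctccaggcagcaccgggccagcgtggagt
Of the 10 genes, 7 had a window among the 32851 windows of RefSeq genes, and short motifs were searched in them on both strands. The letters CAAGGTC, found in the window of *Amhr2*, were held by 3.96% of all windows. The letters TATAAA, found in those of *Inhba* and *Fstl3*, were held by 13.6%. TGATAA, found in *Amhr2* on the minus strand, was held by 9.05%. Searches for TGACGTCA, which 1.79% of windows held, and for AGATAA, which 11.2% held, gave no match in the 7 windows. These matches describe letters only.

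The 4 remaining genes were low throughout. *Fstl3* reached 0.0583, 0.0476 and 0.114 in stroma-like and 0.0730, 0.0899 and 0.186 in smooth muscle-like cells, against 0.00711, 0.0127 and 0.0339 in granulosa-like cells. Stroma-like cells held 50%, 36.2% and 56.5% of its UMIs, which numbered 174, 196 and 588 over all cells. Of the UMIs of all genes they held 18.4%, 20.5% and 33.9%. Smooth muscle-like cells held 9.20%, 28.6% and 9.86% of the *Fstl3* UMIs and 2.69%, 8.54% and 3.64% of those of all genes. *Fstl3* thus had the opposite placing to *Fst*, of which granulosa-like cells held 94%, 89.8% and 50.3% of the UMIs. *Tgfbr3* was highest in theca-like cells of sets 1 and 3, with 1.06 and 0.970, and in smooth muscle-like cells of set 2, with 0.821. At 3000 UMIs its share of cells was above both background classes in stroma-like cells of each set, theca-like cells of sets 1 and 3 and smooth muscle-like cells of sets 2 and 3, and that of *Fstl3* in smooth muscle-like cells of set 3. At 1500 UMIs this held for *Tgfbr3* in theca-like cells of sets 1 and 3, stroma-like cells of set 3 and smooth muscle-like cells of set 2, and not for *Fstl3*. The level of *Tgfbr3* was 0.824, 0.651 and 0.821 in stroma-like and 0.476, 0.323 and 0.218 in granulosa-like cells, 2.86-fold lower (2.61 to 3.13) than in all other cells in set 3. *Acvr2a* had 0.199, 0.183 and 0.130 in granulosa-like cells and ratios to the other cells of 1.31, 1.11 and 1.15. *Acvr1b* was at 0.0391, 0.0236 and 0.0311 in granulosa-like and 0.133, 0.147 and 0.0831 in endothelial-like cells, and its ratio of granulosa-like to other cells passed the fold in set 2 only, 2.12-fold lower (1.62 to 2.80). These 3 receptor genes were thus at or below 0.476 in granulosa-like cells, where the ligand chains of sets 1 and 2 were at 6.11 or above.

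Further genes of the pathway came from a list of 25 receptors, SMADs, binding proteins and ligands, of which 24 were in the table and 20, 20 and 19 had enough UMIs to compare granulosa-like with other cells in sets 1, 2 and 3. Past 2-fold, 3, 5 and 4 were higher and 6, 3 and 3 lower, to be read beside the 9.95%, 8.01% and 9.78% of all genes higher and the 17.5%, 19.5% and 14.6% lower. The type I receptor *Bmpr1b* (10.4, 5.10 and 5.66) and the type II receptor *Bmpr2* (6.38, 3.85 and 2.23) were higher in each set, as was the co-receptor gene *Tdgf1* (11.6, 4.63 and 8.76) at levels of at most 0.0258. *Bmpr2* had 9.20, 7.72 and 2.60 in granulosa-like cells, well above *Acvr2a*. *Acvr1*, *Tgfbr2* and *Fstl1* were lower in each set, by 14.5-, 16.9- and 14.9-fold for *Fstl1* and 8.58-, 6.73- and 5.49-fold for *Tgfbr2*. In single sets, *Acvr1c* and *Bambi* were lower in set 1, *Tgfbr1* was higher in set 2 (2.78), *Acvr2b* was higher in set 3 (2.22), and the oocyte gene *Gdf9* was lower in set 1 and higher in set 2.

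In granulosa-like cells, set 2 had 3 genes of this list past 2-fold above set 1 and 0 below, namely *Tgfbr1* (2.24), *Bambi* (2.54) and *Gdf9* (5.51, at levels of 0.0261 and 0.00474). In each comparison of sets 20 genes of the list were tested, and over all genes 6.71% were higher and 20.2% lower in set 2 than in set 1. Set 3 had 0 above set 2 and 5 below (19.8% and 8.69% of all genes), *Bambi* at 3.39-fold, *Bmpr2* at 2.97-fold, *Acvr1c* at 2.84-fold, *Tgfbr1* at 2.50-fold and *Smad7*, an inhibitory SMAD, at 2.15-fold. Against set 1, *Bmpr2* was 3.54-fold, *Bmpr1b* 2.78-fold and *Acvr1c* 2.25-fold lower and *Gdf9* 3.06-fold higher in set 3 (11.1% of all genes lower, 6.83% higher). Antral mural-like cells had more *Bmpr1b* (2.19 and 2.64), *Bmpr2* (2.72 and 5.09) and *Tgfbr1* (2.77 and 5.50) than preantral-like cells in both sets. *Smad7* in set 1 (2.49-fold) and *Acvr2b*, *Smad3* and *Smad5* in set 2 (2.93-, 5.65- and 2.58-fold) were lower there. In sets 1 and 2, 14 and 15 genes of the list were tested, of which 3 and 3 were higher and 1 and 3 lower. Over all genes, 11.0% and 11.0% were higher and 8.93% and 27.5% lower.

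Genes with a like pattern were sought over 32 groups, the named classes and granulosa-like subtypes by marker score of the 3 sets, by Pearson's r of log2(level + 0.1) among 9182 genes with at least 2000 UMIs. These groups share libraries and depth, and r is given as a description. The closest to *Inha* were *Tox2* (0.939), *Prkar2b* (0.902), *Fst* (0.901), *Ndufs4* (0.899) and *Tmsb15b2* (0.897). Those to *Inhba* were *Nap1l5* (0.949), *Inhbb* (0.940), *Grem1* (0.929), *Cyp19a1* (0.919), the estrogen-producing aromatase, and *Hsd17b1* (0.904). *Fst* had *Herc3* (0.957), *Tox2* (0.955), *Hsd17b1* (0.953), *Tmsb15b2* (0.952) and *Nap1l5* (0.95). *Amh* had *Slc18a2* (0.951), *Wfdc10* (0.938), *Tmem184a* (0.885), *Col9a2* (0.877) and *Fndc5* (0.848). *Cyp19a1*, *Hsd17b1*, *Grem1* and *Slc18a2* were among the markers that named clusters. *Fst* was thus in the list of *Inha* and *Inhbb* in that of *Inhba*. No inhibin chain was in the list of *Fst*, whose last gene had 0.95, above the 0.901 of *Inha* with *Fst*, so this follows from the length of the lists.

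By the same annotation *Inha* lies at chr1:75507077-75510366 and *Fstl3* at chr10:79777272-79782630 on the plus strand, and *Inhbb* at chr1:119415465-119422248 and *Fst* at chr13:114452290-114458951 on the minus strand. *Amh* lies at chr10:80805243-80807648, *Acvr2a* at chr2:48814109-48903269 and *Acvr1b* at chr15:101174067-101213684 on the plus strand, and *Tgfbr3* at chr5:107106570-107289629 on the minus strand. *Inhba*, *Fst*, *Fstl3*, *Acvr2a* and *Tgfbr3* overlap a gene on the opposite strand, of which the longest protein-coding overlap is that of *Prss57* with *Fstl3* over 1157 bases. The strand setting of the counting is not given in the sources used here, so UMIs of these genes and of their partners cannot be told apart with certainty. On the same strand, *Tgfbr3* overlaps *Gm42900*, *Gm43422* and *Gm43423* over 2167, 3571 and 2094 bases, and *Acvr1b* overlaps *Mir6962* over 63 bases. A strand setting would not separate these.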

How the data were processed

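Droplet scRNA-seq of 3 mouse ovary libraries was deposited by the authors as 1 table of natural log values, ln(1 + UMIs per 10000 UMIs of the cell). The submitters' processing notes name Cell Ranger, Seurat and the mm10 build, with no version. How cells, genes and doublets were filtered before deposit is not given in the sources used here. Whole UMIs were recovered from the log values: 100% of 80167176 values above 0 came out whole within 0.01 UMI, and 240030587 UMIs were obtained over 31776 cells (500 to 133658 per cell). At this depth a level of 1 UMI per 10000 leaves many cells without a UMI, so levels were taken over summed UMIs and shares of cells at 3000 UMIs, with shallower cells left out.

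Each barcode set was clustered separately without the 10 genes and the pathway list (2000 variable genes, 30 principal components, 15 neighbors, Louvain at resolution 1). Clusters needed at least 3 detected markers of a class, in at least 10% of cells at a level of at least 0.5 and at 0.4 of the highest cluster, and no more markers of another class than of its own among their 10 leading genes. Thresholds for these names were chosen once the clusters had been seen, in views that left out the 10 genes, and atretic-like clusters could be named with fewer than 3 general granulosa markers. Subtypes went by marker score, and 2 clusters whose leading genes held more markers of another subtype were then left without one. A gate that classed each cell by its own markers called 83.9% of the granulosa-like cells granulosa and 0.885% of the cells of other named classes, with 4373 cells (13.8%) near its limit. The share was lower in set 3, with 41.6% in the mitotic, 54.6% in the expanding cumulus-like, 64.0% in the *Tdrd5*-led, 74.3% in the *Ihh*-led and 84.8% in the preantral-like cluster. In sets 1 and 2 it was 64.5% and 65.9% in the atretic-like clusters and at least 79.4% in the other granulosa-like clusters. The genes and lists were chosen with earlier results of these data known. Scrublet (scanpy 1.11.5) marked 39 cells (0.123%), too few to have worked, and no doublets were removed.

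Intervals are exact 95% Poisson, conditional binomial or Clopper-Pearson intervals. No test was run, since a time point has 1 library and no source maps barcode endings to libraries. Named genes are the 10, pathway genes past 2-fold, the 5 most alike of *Inha*, *Inhba*, *Fst* and *Amh*, and the 3 leading genes of clusters. The interval and call procedure was tested on simulated data. Alternatives were another weighting of cells, a gate on each cell, joint clustering, other resolutions, depth minima, doublet scores, totals without the 50 most abundant genes and other thinning. Python 3.11.15, numpy 2.4.6, scipy 1.17.1, scikit-learn 1.9.0 and python-igraph 0.11.9 were used.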

Additional observations from a re-analysis of the deposited data

How the results depend on the processing

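No paired analysis was possible because each time point has 1 library and the barcode sets carry no replicate number, so no library could be left out either. Depth limits the genes below about 1 UMI per 10000, and spread between ovaries is unknown. Among values past 2-fold, 1 turned under an alternative: the *Fst* ratio of granulosa-like to other cells in set 3 was 0.835 with the sets clustered together. The number of genes higher in each set, 4, was 1 with the sets clustered together, 2 at resolution 2, 3 without the 50 most abundant genes or without atretic-like clusters, and 6 with the gate, with near-granulosa clusters added or with unnamed clusters left out of the other cells. Granulosa-like cells of set 3 numbered 2980, and 772 with the sets clustered together, 1794 at resolution 2 and 5195 with near-granulosa clusters added. In set 1 the genes lower in antral mural-like cells, 1, were 2 under the gate on each cell, with the sets clustered together, at resolution 0.5, at resolution 2 and with the 50 most abundant genes left out of totals. From set 1 to set 2, 0 genes were called, against 1 higher with a mean over cells and 2 lower at resolution 2. Of alternatives chosen after the data were seen, counting near-granulosa clusters as granulosa-like gave 1 gene higher in set 3 than in set 2 and 1 than in set 1. The α to β ratios of 1.44, 1.33 and 7.08 were 1.57, 1.45 and 7.31 as a mean over cells, 1.43, 1.36 and 7.32 with the gate, 1.38 (set 1) and 8.12 (set 3) with joint clustering, 1.32 (set 2) at resolution 0.5 and 1.41, 1.29 and 6.43 at resolution 2. They were 1.39 (set 2) and 10.8 (set 3) with near-granulosa clusters added, and 1.32 (set 2) without atretic-like clusters, also chosen after the data were seen. Leaving out atretic-like clusters took granulosa-like cells from sets 1 and 2 only, to 4175 and 3629. The *Tdrd5*-led cluster of set 3, which shared leading genes with an atretic-like cluster, stayed in. The *Inhba* share of β chain UMIs was 81.0% (set 1) and 87.6% (set 2) as a mean over cells, 85.8% (set 2) and 72.9% (set 3) with the gate, 64.8% (set 3) with joint clustering, 69.3% (set 3) at resolution 2, 78.9% (set 1) without the 8% of cells of highest doublet score and 78.4% (set 3) with near-granulosa clusters added. The number of genes detected above both background classes was 5, 5 and 6 at 3000 UMIs and at 1500 UMIs, and 6, 6 and 7 without thinning. Over all values recomputed, ratios of single genes included, 46 moved beyond counting error (counts, 1.5 times) and 34 did not under the gate, 40 and 40 as a mean over cells, 41 and 38 with joint clustering, 17 and 63 at resolution 0.5, 49 and 30 at resolution 2, 13 and 67 without the 50 most abundant genes, 4 and 76 with at least 2000 UMIs per cell and 18 and 62 with unnamed clusters left out of the other cells. With near-granulosa clusters added 30 moved and 50 did not, without atretic-like clusters 28 and 52, without the cells of highest doublet score 23 and 57, and with the *Nts*- and *Ihh*-led clusters left out of the subtypes they scored for, as in the values above, 2 and 78. The cause of these shifts was not tested.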
